A study of Drosophila melanogaster with 36 samples.

Results

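Line 58 is 1 of 9 isogenic lines of Drosophila melanogaster, stocks bred until the flies of a line carry nearly the same genome, whose embryos were profiled on one-colour Affymetrix arrays. It was chosen by name from the array titles and is represented by 4 of the 36 arrays, 2 RNA samples of embryos at 5 h and 2 at 8 h. It was set against the other 8 named lines, 17, 23, 75, 83, 89, Drosophila_128, Drosophila_134 and Drosophila_145 as the titles number them, with 15 arrays at 5 h and 16 at 8 h. An array at 5 h whose title names no line was left out. All lines share the species, the tissue (whole embryos) and the 2 times, and the labels name no treatment, allele or strain of origin. How closely embryos were staged is not stated in the labels, nor is it stated that paired RNA samples are separate embryo collections. The p-values over RNA samples therefore measure only the spread between these samples, which may be technical.

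At 5 h a fly embryo has finished cellularisation, in which membranes close around the nuclei of the early embryo, and gastrulation, and has begun to form neuroblasts, the stem cells of the nervous system. By 8 h the germ layers give rise to muscle, gut, trachea, nervous system and blood cells. Over this period transcripts loaded by the mother are degraded and genes of differentiating tissues are switched on.

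Levels below are quantile-normalised intensities. Differences are line 58 minus the mean of the other 8 lines, each line and time weighted equally, on the log2(intensity + 16) scale. Since 91.3% of normalised values lay under that pseudocount of 16, a difference understates the change of a dim gene. Calls are adjusted p-values (Benjamini-Hochberg over 18769 probe sets, limma) under 0.05. In whole embryos, fewer cells of a type and less RNA per cell cannot be told apart. How well the probes match the sequence of each line was not tested, so differences are in probe signal.

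Total deposited intensity was 169245 to 234801 on the arrays of line 58 and 46261 to 309710 on those of the other lines, with a median of 131507. The negative-control limit was passed by 7421 to 8005 probe sets in line 58, against 3156 to 8128 (median 6403) in the other lines. The 2 arrays of line 58 correlated at r = 0.979 at 5 h and 0.976 at 8 h over 6183 measured probe sets, which are not independent replicates. For arrays of line 58 against arrays of other lines, the median r was 0.913 at 5 h and 0.87 at 8 h. The embryo label held: 16 patterning genes such as eve and en, of which 13 were measured, had a summed intensity of 96.6 to 151 in line 58 and 27.7 to 258 in the other lines. Markers of other sources were near background: the sums of 14 eggshell and yolk genes (7.61 to 12.4 in line 58, 7.54 to 30.3 in the other lines), 18 adult gut proteases (6.59 to 12.9 against 7.85 to 52.7) and 17 testis genes (7 to 14.5 against 5.22 to 19.7) overlapped, and none of these genes was called. Of these 3 marker lists, 1, 1 and 6 genes were above the limit on no array.

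Over both times, 958 probe sets (5.1%) were higher and 580 (3.09%) lower in line 58 than in the other lines, 1538 (8.19%) in all. Of the 1538, 1525 differed in the same direction at 5 h and at 8 h. Such agreement is largely set by calling them on the mean of both times, so it is not separate evidence. Differences were mostly small, with a median size of 0.38 among the higher and 0.36 among the lower probe sets. With the pseudocount added, a difference of at least 2-fold was reached by 44 higher (0.234%) and 2 lower (0.0107%) probe sets. A probe set whose level in the other lines is below the pseudocount cannot be 2-fold lower on this scale, even if its signal is lost. The higher and lower counts at this threshold therefore cannot be compared directly. Line 58 was the highest of the 9 lines at both times in 540 of the higher probe sets (2.88% of those tested) and the lowest at both times in 211 of the lower ones (1.12%). The balance of higher and lower calls depended on how arrays were scaled. On the deposited scale it was 2060 higher (97.4%) and 56 lower, and with arrays scaled to a common median 1229 higher (91.1%) and 120 lower, against 62.3% higher here. Scaling to the same 90th percentile gave 989 higher (61.3%) and 624 lower. Among measured probe sets only, the balance was nearly even, with 853 higher (51.1%) and 815 lower. Leaving out 1 array of line 58 gave 955 and 855 calls without replicates 1 and 2 at 5 h, and 1027 and 849 calls without replicates 1 and 2 at 8 h.

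At 5 h, 350 probe sets (1.86%) were called, 235 higher (1.25%) and 115 lower (0.613%). At 8 h, 1107 (5.9%) were called, 764 higher (4.07%) and 343 lower (1.83%). At both times 235 were called, all in the same direction. Whether the difference itself changed between 5 h and 8 h was tested directly, and 40 probe sets (0.213%) passed, 38 with a larger value of line 58 minus the other lines at 8 h (0.202%) and 2 with a smaller one (0.0107%). That count fell to 1 without replicate 2 of line 58 at 8 h and to 4 without replicate 1 at 5 h. The calls at 8 h fell to 278 without replicate 2 and to 459 without replicate 1 at 8 h, and those at 5 h to 50 without replicate 2 and to 78 without replicate 1 at 5 h.

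The test above uses the spread between RNA samples and does not say whether line 58 stands outside the usual spread of lines. With the 9 line means as the replicates, 154 probe sets (0.821%) differed in line 58, 152 of them higher (0.81%) and 2 lower (0.0107%), and all 154 were also called over RNA samples. A probe set near the floor of this scale in the other lines can hardly be called lower. Here too, the higher and lower counts therefore cannot be compared directly. The same test made 0 to 24 calls for each of the other lines, with 24 for line Drosophila_134 and 0 for line 83. Over RNA samples, by contrast, line 75 had 955 higher (5.09%) and 662 lower (3.53%) probe sets and line Drosophila_134 had 681 (3.63%) and 579 (3.08%). For line 58 the count against the spread among lines was 417 on the deposited scale, 266 with a common median and 91 with a pseudocount of 4. Among measured probe sets only it was 48, with 47 higher and 1 lower. Leaving out line 17 lowered the 154 calls to 118, and leaving out line 83 raised them to 241.

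**Figure D1:**
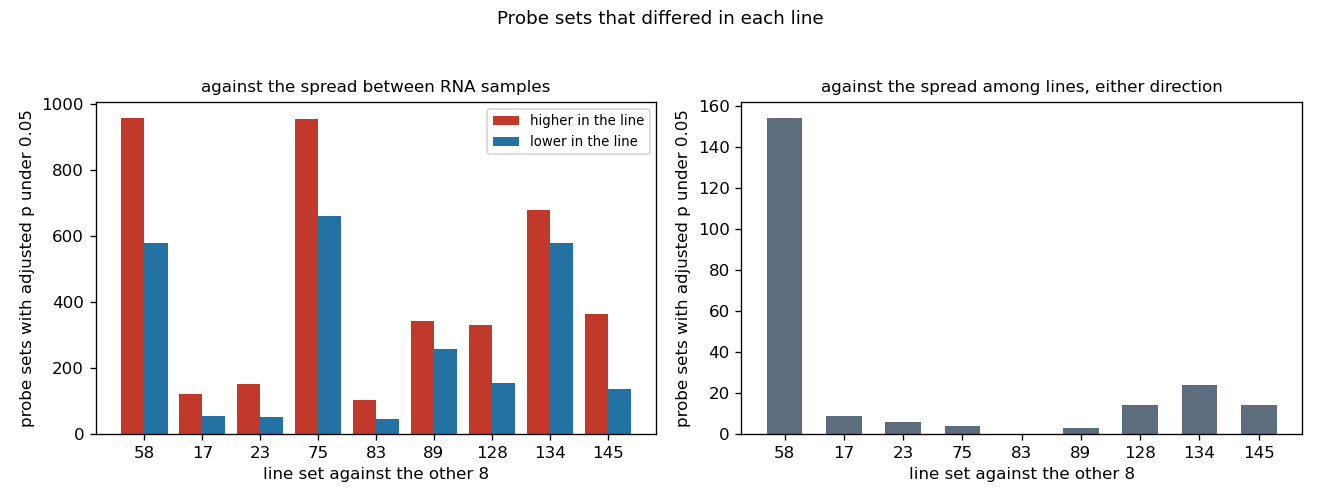
Number of probe sets with an adjusted p under 0.05 when each isogenic line (x axis, line 58 first) is set against the other 8. The left panel uses the spread between RNA samples and splits calls into higher and lower in the line, with line 58 at 958 and 580 and line 75 at 955 and 662. The right panel uses the spread among lines, with line 58 at 154 and the other lines at 0 to 24. For the other lines that spread includes line 58.

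Line 83 had the fewest direct differences from line 58. Set directly against it, line 58 had 271 higher (1.44%) and 176 lower (0.938%) probe sets. Against each of the remaining 7 lines, the fewest were 590 higher (3.14%) and 338 lower (1.8%), for line 89. Line 83 was the next highest line for 17 of the 19 named higher genes below and for 191 of the 427 genes that met the naming rule for higher genes. For the named lower genes the next lowest was line 75 in 7 of 19 and line 89 in 4. Among the 192 genes that met the naming rule for lower genes, it was line 89 in 42, line 75 in 39 and line 83 in 35.

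The largest difference was CG9184, an uncharacterised gene on 3L. It had 58.9 and 143 at 5 h and 250 and 400 at 8 h in line 58, against 0.0531 to 29.3 (median 5.48) at 5 h and 0.102 to 33.6 (median 9.54) at 8 h in the other lines. All 4 arrays of line 58 lay above every array of the other lines of the same time. The difference was 2.99 ± 0.22 (SE; adjusted p = 1.9e-11 in limma), 7.92-fold, and it was also called against the spread among lines (adjusted p = 2.8e-05). Arrays of line 58 lay above every other array at both times for 150 probe sets (0.799%), and below every other array for 27 (0.144%).

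betaTub60D, the beta-3 tubulin that the embryo makes itself and that is best known from developing muscle, was at 66 and 79.3 at 5 h and 139 and 156 at 8 h in line 58. In the other lines it was at 0.783 to 24.1 (median 4.28) at 5 h and 1.05 to 69.6 (median 18.5) at 8 h. The groups did not overlap at either time, and the difference was 2.11 ± 0.18 (SE; limma, adjusted p = 2.5e-10; 0.0039 against the spread among lines). Of 8 tubulin genes, betaTub60D was the only one called higher on this scale. betaTub56D, the abundant maternal beta tubulin, was called lower at −0.30 ± 0.09 (SE, limma, adjusted p = 0.035), but its difference was above 0 on the deposited scale and with a common median.

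Gene lists are read below against 6.51% higher, 4.24% lower and a median of −0.01 over 11982 genes. Of the 5205 measured genes with a position, 10.6% were higher and 9.68% lower. Of 15 muscle contractile protein genes, 2 were higher and 0 lower, with a median of 0.17 and 11 of 15 above 0. On the deposited scale 6 of them were higher, and with a common median 5. Strn-Mlck, a myosin light chain kinase of the titin family, was higher by 0.30 ± 0.06 (SE), with 2.09 to 11.5 in line 58 against medians of 0.23 at 5 h and 1.94 at 8 h in the other lines. TpnC73F, a troponin C, was higher by 0.57 ± 0.16 (SE). Among 12 regulators of mesoderm and muscle fate, lmd, a zinc finger factor of fusion-competent myoblasts, was the only one called over both times (0.44 ± 0.06, SE). twi, the factor that specifies mesoderm, was at −0.30 ± 0.10 (SE, limma, adjusted p = 0.068). At 5 h alone twi was called lower (−0.58 ± 0.14, SE, limma, adjusted p = 0.025), and at 8 h it was at −0.02. Over both times the mean of twi was lower still in line 75 (4.24 against 4.55 in line 58).

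Laminins, the trimers on which basement membranes assemble, were higher together. LanA, the alpha chain, had 35.5, 46.9, 74.2 and 90.7 in line 58 (the first 2 at 5 h), against 1.48 to 15.5 (median 4.67) at 5 h and 3.38 to 52.5 (median 17.7) at 8 h in the other lines. Its arrays did not overlap with the others at either time, and the difference was 1.42 ± 0.13 (SE; limma, adjusted p = 1.5e-09; 0.0052 against the spread among lines). LanB2, the gamma chain, was higher by 1.05 ± 0.10 (SE), also without overlap and called against the spread among lines (adjusted p = 0.0045 in limma). LanB1, the beta chain, was higher by 0.75 ± 0.10 (SE), with arrays apart at 5 h but not at 8 h, and was not called against the spread among lines (adjusted p = 0.12).

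Laminins, Ppn and SPARC stood in a list of 19 genes of haemocytes, the blood cells of the fly, and of fat body. In that list 9 genes were higher and 0 lower, with a median of 0.23. The summed intensity of the list was 149 to 408 in line 58 and 16.2 to 404 (median 88.3) in the other lines, so the sums overlapped, and 2 of the 19 were above the limit on no array. Ppn, the matrix protein papilin, was higher by 1.05 ± 0.12 (SE). PPO2, a prophenoloxidase of crystal cells that makes melanin, was higher by 0.66 ± 0.10 (SE), and its sister PPO1 by 0.33 ± 0.05 (SE). Col4a1, a collagen IV chain, was at 0.49 ± 0.28 (SE, limma, adjusted p = 0.43).

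apolpp, the precursor of the main apolipoprotein of fly blood, had 53.1 and 101 at 5 h and 144 and 150 at 8 h in line 58, against 0.554 to 56.2 (median 13.6) at 5 h and 3.92 to 206 (median 66.9) at 8 h in the other lines. The groups overlapped at both times, and apolpp was called over RNA samples (1.46 ± 0.30, SE, limma, adjusted p = 0.00092) but not against the spread among lines (adjusted p = 0.26). Of 9 genes of apolipoproteins and yolk lipid handling, 5 were higher and 1 lower, with a median of 0.23. Apoltp, a lipid transfer particle protein, was higher by 0.59 ± 0.08 (SE) and Mtp, which loads lipid onto apolipoproteins, by 0.39 ± 0.09 (SE), while Npc2a, a sterol-binding protein, was lower by −0.48 ± 0.14 (SE).

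**Figure D2:**
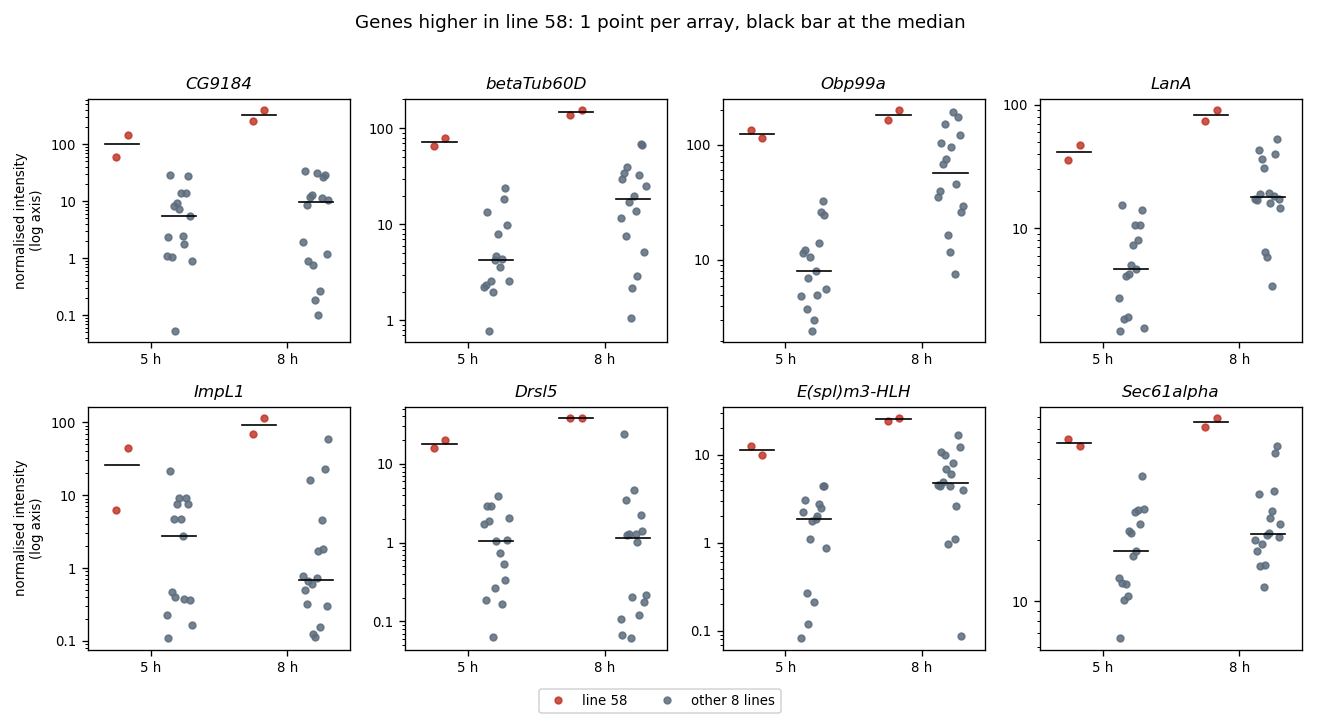
Quantile-normalised intensity (log axis) of 8 genes called higher in line 58, with 1 point per array, line 58 in red to the left of the other 8 lines in grey at each time (x axis, hours), and black bars at the medians. For CG9184, betaTub60D, LanA, Drsl5, E(spl)m3-HLH and Sec61alpha the points of line 58 lie above all others at both times; for Obp99a they do so only at 5 h and for ImpL1 only at 8 h.

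ImpL1, first known as a gene induced by the moulting hormone ecdysone, had 6.18 and 45 at 5 h and 68.5 and 116 at 8 h in line 58. In the other lines it had 0.108 to 21.7 (median 2.75) at 5 h and 0.114 to 58.7 (median 0.695) at 8 h. The groups were apart at 8 h only, and the difference was 1.62 ± 0.23 (SE; limma, adjusted p = 4.2e-06; 6.3e-05 against the spread among lines). The neighbouring genes CG14107 and CG14110 on 3L were also higher, by 0.79 and 1.20. ImpE2, also ecdysone-inducible, was at 3.13, 11.8, 31.2 and 39.8 in line 58, against medians of 2.58 at 5 h and 2.97 at 8 h in the other lines, with a larger difference at 8 h than at 5 h (1.40 against 0.26). Of 16 ecdysone response genes, 5 were higher and 1 lower, with a median of 0.05.

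Osi6 and Osi15 belong to the Osiris genes, insect-specific membrane proteins of cuticle-secreting epithelia. Osi6 had 45.1, 62.7, 119 and 154 in line 58, against 0.0683 to 105 (median 7.3) at 5 h and 0.052 to 264 (median 1.08) at 8 h in the other lines. The groups overlapped at both times because single arrays of other lines were as bright, and the difference was 1.94 ± 0.45 (SE; limma, adjusted p = 0.0038; 0.0091 against the spread among lines). With array brightness as a covariate the call of Osi6 was lost. Osi15 was higher by 1.46 ± 0.27 (SE) and was called against the spread among lines (adjusted p = 0.0028 in limma).

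Among 18 epidermis and cuticle genes, 6 were higher and 0 lower, with a median of 0.10. kkv, a chitin synthase, was higher by 0.51 ± 0.08 (SE), obst-A, a chitin-binding matrix protein, by 0.41 ± 0.06 (SE), and Gasp, another chitin-binding protein, by 1.05 ± 0.24 (SE). Of 11 tracheal genes 3 were higher and 0 lower, with a median of 0.17. Among these, verm and serp encode chitin deacetylases that limit tube length, and verm had 5.6, 8.23, 30.4 and 33.2 in line 58 against medians of 0.723 at 5 h and 1.82 at 8 h in the other lines. The highest 8 h array of another line, at 34.2, lay above both arrays of line 58. Of 104 genes of the structural cuticle protein families, 0 were called (1 higher and 6 lower at an unadjusted p under 0.05 in limma). However, 0 of these 104 were measured, so a lack of calls there says little. tyn, a membrane protein of the zona pellucida domain type, was higher by 1.20 ± 0.12 (SE), with a difference of 1.73 at 8 h against 0.67 at 5 h (adjusted p of the change = 0.039).

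Obp99a, an odorant-binding protein, had between 114 and 200 on the 4 arrays of line 58, with 162 and 200 at 8 h, against 2.44 to 32.7 (median 8.08) at 5 h and 7.52 to 191 (median 56.9) at 8 h in the other lines. The groups were apart at 5 h and overlapped at 8 h. The difference was 1.93 ± 0.18 (SE, limma, adjusted p = 1.3e-09), and against the spread among lines it narrowly missed the threshold (adjusted p = 0.053). Of 47 odorant-binding protein genes, of which 1 was measured, 3 were higher and 0 lower, with a median of −0.02. Drsl5, a relative of the antifungal peptide drosomycin, had 15.7, 19.8, 38.6 and 38 in line 58, against medians of 1.05 at 5 h and 1.14 at 8 h in the other lines, of which 4 of 31 arrays were above the limit. Within each time no array of another line reached those of line 58, although the highest 8 h array of another line, at 23.8, was above the 5 h arrays of line 58, and the difference of 1.28 ± 0.09 (SE) was called by both tests (limma, adjusted p = 1.3e-11 and 6.3e-05). Of 10 antimicrobial peptide and peptidoglycan recognition genes, 0 were called in limma, and 0 had an unadjusted p under 0.05. Only 1 of these 10 was measured, so that list could hardly give a call. Spn43Aa, a serpin, was likewise apart at both times and higher by 1.15 ± 0.09 (SE, limma, adjusted p = 0.00011 against the spread among lines). It was 1 of 2 serpins called higher among 27, beside Spn100A (0.48 ± 0.05, SE).

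The other named higher genes were nur (1.88 ± 0.34, SE) and Sirup, a succinate dehydrogenase assembly factor (1.16 ± 0.16). Among genes named by a CG number they were CG10591 (1.92 ± 0.14), CG5885 (1.25 ± 0.11) and CG14756 (1.16 ± 0.20). Of these, CG10591 and CG5885 were apart at both times and were called against the spread among lines (limma, adjusted p = 4.6e-05 and 0.018). nur overlapped at both times, with 46.9, 107, 191 and 197 in line 58 against 0.178 to 58.1 at 5 h and 0.181 to 194 at 8 h in the other lines.

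The Enhancer of split complex holds bHLH repressors and Bearded-type inhibitors that Notch switches on in cells kept from becoming neuroblasts. Of 14 genes of the Bearded family and this complex, 7 were higher and 0 lower, with a median of 0.43. E(spl)m3-HLH, 1 of the repressors, had 12.7 and 9.85 at 5 h and 24.2 and 26.3 at 8 h in line 58, against 0.082 to 4.44 (median 1.87) and 0.0885 to 16.5 (median 4.72) in the other lines. It was apart at both times and was called by both tests (0.77 ± 0.07, SE, limma, adjusted p = 1.6e-09 and 0.0044). The other 6 were not called against the spread among lines.

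Of 20 neuron and glia genes, 9 were higher and 0 lower, with a median of 0.13. fne, an RNA-binding protein of neurons, was higher by 0.68 ± 0.09 (SE) and its relative elav by 0.65 ± 0.13 (SE). Nrg, a cell adhesion molecule of axons and glia, was higher by 0.67 ± 0.12 (SE), and repo, the homeodomain factor of glia, by 0.25 ± 0.05 (SE). Against the spread among lines, fne, Nrg and elav were not called (limma, adjusted p = 0.083, 0.49 and 0.96). The arrays of elav overlapped with those of the other lines at both times. Of 24 neuroblast genes, 19 of which were measured, 6 were higher and 1 lower, with a median of 0.12. grh and cas, both temporal factors of neuroblasts, had arrays apart from the other lines at both times, with differences of 0.59 ± 0.07 and 0.40 ± 0.06 (SE). Against the spread among lines, cas was called (limma, adjusted p = 0.025) and grh was not (adjusted p = 0.052). The lower neuroblast gene was CycE, the cyclin of the G1 to S transition, at −0.50 ± 0.13 (SE).

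Of 12 endoderm and gut genes 5 were higher and 0 lower, with a median of 0.11. GATAe, the GATA factor that maintains endoderm, had 4.29 and 3.06 at 5 h and 11 and 22.6 at 8 h in line 58, against medians of 0.877 and 2.44 in the other lines, and both 8 h arrays lay above all others. Ance, an angiotensin-converting enzyme homologue of the amnioserosa, was the only one called of 11 amnioserosa genes, at 1.10 ± 0.10 (SE), and its arrays were apart at both times. In the segment polarity list, en, the homeodomain factor of posterior compartments, was higher by 0.60 ± 0.08 (SE), with 11.9 and 16.4 at 5 h in line 58 against 0.529 to 8.06 in the other lines. At 8 h it had 34.3 and 30.3 in line 58 against 3.19 to 65.5 (median 13.6) in the other lines, so that the groups overlapped, and it was not called against the spread among lines (limma, adjusted p = 0.6).

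Of 11 heat shock and chaperone genes, which help proteins fold, 8 were higher and 1 lower, with a median of 0.53. Hsp27, a small heat shock protein, had 97.6, 132, 137 and 152 in line 58, against 16 to 271 (median 85.4) at 5 h and 9.01 to 156 (median 44.4) at 8 h in the other lines. The groups overlapped, and its difference of 0.85 ± 0.19 (SE) was called over RNA samples (limma, adjusted p = 0.002) and not against the spread among lines (adjusted p = 0.96). Hsc70-5 and Hsp60A, chaperones of mitochondria, were higher by 0.70 ± 0.11 and 0.75 ± 0.17 (SE). Hsc70-4, the main cytosolic Hsp70 of unstressed cells, was lower by −0.51 ± 0.07 (SE) on this scale but was above 0 on the deposited scale and with a common median. None of the 9 was called against the spread among lines.

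Of 40 cytoplasmic ribosomal protein genes, 9 were higher and 0 lower, with a median of 0.13. On the deposited scale that median was 0.88, with 30 of 40 higher. RpS5b, a paralogue of RpS5a best known from the female germ line, had 373, 303, 315 and 315 in line 58 against 84.9 to 315 (median 188) at 5 h and 86.3 to 284 (median 212) at 8 h in the other lines, so that it was apart at 8 h only. Its difference was 0.76 ± 0.14 (SE), and paralogues of ribosomal protein genes can share probes. Sec61alpha and Sec61gamma, 2 of the 3 subunits of the channel through which secreted proteins enter the endoplasmic reticulum, were each apart at both times. Sec61alpha had 62.1, 57.4, 71.2 and 79.3 in line 58 against medians of 17.6 at 5 h and 21.4 at 8 h in the other lines (1.15 ± 0.10, SE, limma, adjusted p = 8.3e-10), but missed the threshold against the spread among lines (adjusted p = 0.063). Sec61gamma was not called against that spread either (limma, adjusted p = 0.25).

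**Figure D3:**
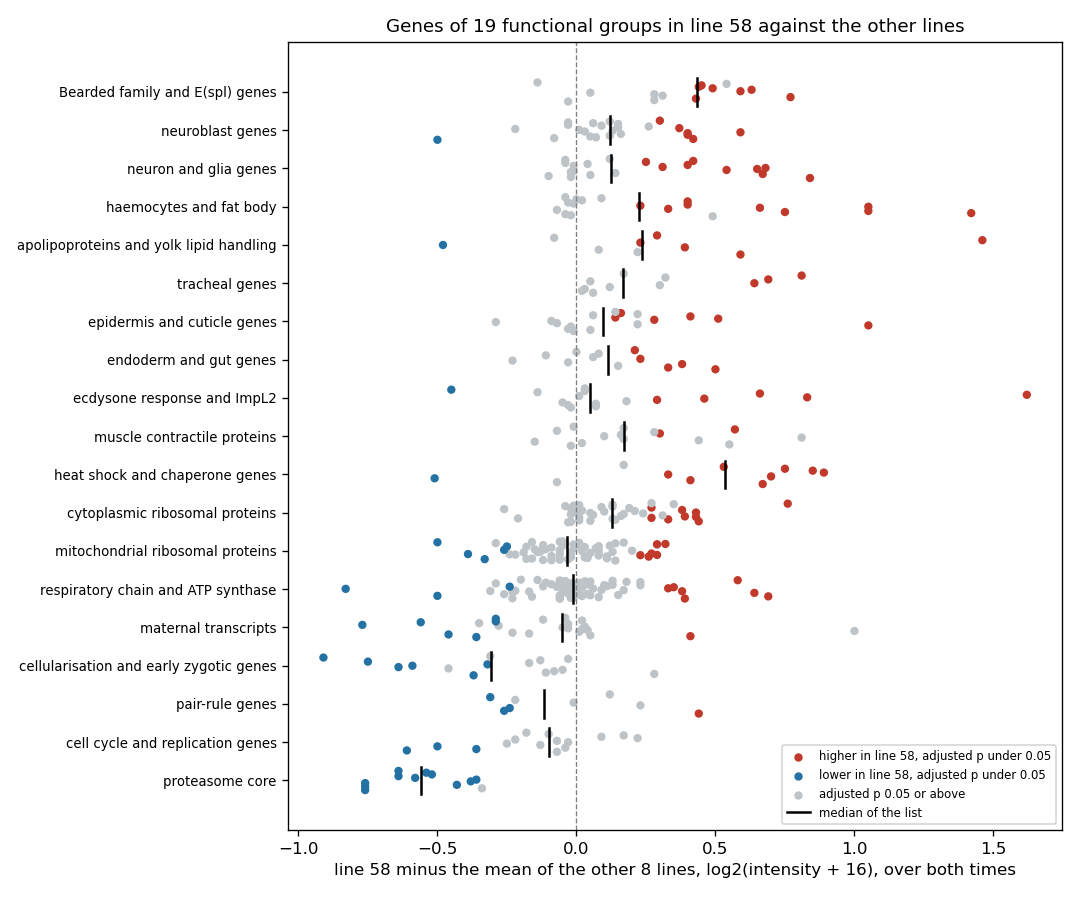
Difference of each gene of 19 functional groups in line 58 from the mean of the other 8 lines over both times (x axis, log2(intensity + 16) units), with red and blue points for genes called higher and lower, grey points for genes not called and black bars at the medians. Chaperone genes and the Bearded and Enhancer of split genes lie mostly to the right (medians 0.53 and 0.43), proteasome core genes all lie to the left (median −0.56).

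On the lower side, the largest difference was CG1943, an uncharacterised gene on 3R. It had 71.7 and 74.6 at 5 h and 45.4 and 52.4 at 8 h in line 58, against 144 to 306 (median 221) at 5 h and 91.4 to 267 (median 143) at 8 h in the other lines. The arrays did not overlap, and the difference was −1.35 ± 0.12 (SE, limma, adjusted p = 4.6e-10), with an adjusted p of 0.054 against the spread among lines. CG1943 kept its call under every scaling tried.

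ND-39, a subunit of respiratory complex I, was the only named gene called lower against the spread among lines (adjusted p = 0.024 in limma). It had 1.92, 2.21, 2.34 and 4.45 in line 58, against 10.4 to 28.1 (median 19.8) at 5 h and 9.8 to 27.7 (median 13.2) at 8 h in the other lines. Every array of line 58 lay below every other array, and all were above the negative-control limit. The difference was −0.83 ± 0.09 (SE) on the log2(intensity + 16) scale, which is compressed at such low intensities. Of 72 genes of the respiratory chain and ATP synthase, ND-39 included, 7 were higher and 4 lower, with a median of −0.01, and the higher ones included COX7A (0.64 ± 0.12, SE) and ATPsynbeta (0.69 ± 0.14, SE).

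nxf2, a nuclear export factor relative that acts in piRNA-guided silencing, had 2.64 and 4.22 at 5 h and 3.23 and 2.99 at 8 h in line 58, against 10.9 to 27.4 (median 15.1) and 3.87 to 18.4 (median 12.9) in the other lines. It was apart at both times and lower by −0.65 ± 0.08 (SE, limma, adjusted p = 4.9e-07; 0.087 against the spread among lines). retn, an ARID-domain transcription factor also called dead ringer, had 62.3 and 58.3 at 5 h and 33 and 36.5 at 8 h in line 58, against 65.9 to 239 (median 132) and 48.2 to 106 (median 78.1) in the other lines. It too was apart at both times (−0.88 ± 0.11, SE, limma, adjusted p = 8.9e-07), but its call was lost on the deposited scale.

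**Figure D4:**
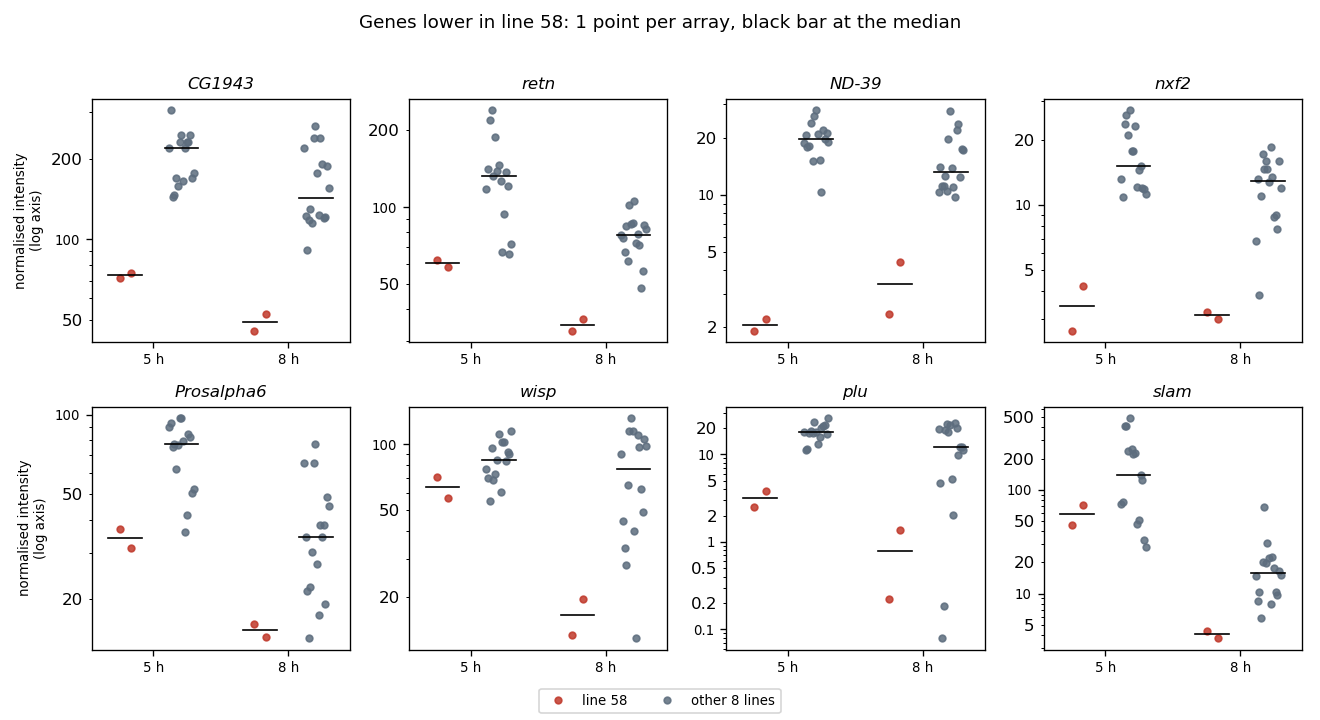
Quantile-normalised intensity (log axis) of 8 genes called lower in line 58, with 1 point per array, line 58 in red to the left of the other 8 lines in grey at each time (x axis, hours), and black bars at the medians. For CG1943, retn, ND-39 and nxf2 the points of line 58 lie below all others at both times; for Prosalpha6 they lie among the lowest, for wisp they are near the bottom at 8 h, for plu they are apart at 5 h and for slam at 8 h.

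Subunits of the proteasome core, the barrel that degrades ubiquitin-tagged proteins, were lower together: 0 of 12 were higher and 11 lower, with a median of −0.56. Prosalpha6 had 37 and 31.2 at 5 h and 16.1 and 14.4 at 8 h in line 58, against 35.9 to 97.3 (median 77.4) at 5 h and 14.2 to 77.1 (median 34.5) at 8 h in the other lines. It lay at the bottom of the range and just overlapped with it, and its difference was −0.76 ± 0.11 (SE, limma, adjusted p = 1.2e-05). Prosalpha2 was lower by −0.76 ± 0.11 (SE) and Prosbeta7 by −0.64 ± 0.11 (SE). The direction held under every scaling tried, but the calls did not: the median of the list was −0.32 with 0 called on the deposited scale, −0.52 with 3 called with a common median and −0.65 with 12 called with a common 90th percentile. None was called against the spread among lines (adjusted p = 0.5 to 0.96 among the 11). In the other lines Prosalpha6 and Prosbeta7 were themselves lower at 8 h than at 5 h, by −0.80 and −0.89.

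Cellularisation and early zygotic genes are active briefly in the early embryo. Of 15 such genes, 0 were higher and 6 lower, with a median of −0.31 (−0.09 on the deposited scale, with 1 higher and 4 lower). slam, which directs membrane growth between nuclei, had 45.5 and 71.7 at 5 h and 4.42 and 3.71 at 8 h in line 58, against 28.1 to 495 (median 140) and 5.81 to 68.7 (median 15.8) in the other lines. Its arrays were below all others at 8 h only (−0.91 ± 0.15, SE). halo, which steers lipid droplet transport, had 18.4 and 32.8 at 5 h in line 58 against a median of 102 in the other lines, with a difference of −1.25 at 5 h and −0.26 at 8 h. Its log2(intensity + 16) mean over both times was lower still in line 75, at 4.61 against 4.78 in line 58. None of the 6 was called against the spread among lines (adjusted p = 0.96 each in limma). The pair-rule genes eve, prd and ftz, whose stripes fade during this period, were lower by −0.26 ± 0.06, −0.31 ± 0.07 and −0.24 ± 0.08 (SE), with differences of −0.47, −0.43 and −0.43 at 5 h and −0.06, −0.18 and −0.06 at 8 h. Of 8 pair-rule genes, 1 was higher and 3 lower, and their median of −0.12 was 0.10 on the deposited scale. The lower ones, eve, prd and ftz, were not called against the spread among lines (limma, adjusted p = 0.92, 0.96 and 0.96). Over both times, line 75 was below line 58 for prd (4.16 against 4.24) and ftz (4.14 against 4.22). For eve, line 89 was at 4.15 against 4.14 in line 58, with 2 of 4 arrays of line 58 above the limit.

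Of 23 maternal transcripts, 1 was higher and 6 lower, with a median of −0.05 that was 0 on the deposited scale, where 1 was lower. plu, which keeps the egg from replicating its DNA too soon, had 2.5 and 3.82 at 5 h in line 58 against 11.2 to 26.3 (median 18) in the other lines, and 0.223 and 1.37 at 8 h against 0.0786 to 22.7 (median 12.3). It was apart at 5 h and was lower by −0.77 ± 0.09 (SE), with 2 of 4 arrays of line 58 above the limit. bcd and smg, the anterior determinant and a repressor that clears maternal RNA, differed at 8 h by −1.06 and −1.29, against 0.13 and 0.17 at 5 h. Both were named after their values were seen, and no test of their change is given. wisp, a poly(A) polymerase of egg activation, had 70.8 and 57 at 5 h in line 58 against a median of 84.9 in the other lines. At 8 h it had 13.5 and 19.7 against a median of 77.3. The change of the difference of wisp did not pass its test (−1.02 ± 0.30, SE, limma, adjusted p = 0.28). On the deposited scale the call of wisp was lost.

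Of 15 cell cycle and replication genes, 0 were higher and 3 lower, with a median of −0.10 that turned to 0.10 on the deposited scale. CycB, the main mitotic cyclin, had 218 and 191 at 5 h and 91.4 and 84.1 at 8 h in line 58, against medians of 209 and 195 in the other lines. It was below all other arrays at 8 h and within their range at 5 h (−0.61 ± 0.16, SE, limma, adjusted p = 0.0099). Among the named lower genes, Incenp, of the chromosomal passenger complex, was at −0.58 ± 0.10, bora, an activator of Aurora A kinase, at −0.57 ± 0.09, and msd5, of the augmin complex of spindles, at −0.61 ± 0.09 (SE). The calls of Incenp and bora were lost on the deposited scale.

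Other named lower genes were Cwc25, of the spliceosome, Ptp4E, a receptor tyrosine phosphatase, ZnT49B, of a zinc transporter family, and Ndf, which destabilises nucleosomes, with differences of −0.63, −0.61, −0.66 and −0.59. Of these 4, only Ptp4E was apart at both times, and 2 of 4 arrays of line 58 were above the limit for ZnT49B. The CG-numbered genes CG13551, CG1578, CG42336 and CG11504 were at −0.76, −0.72, −0.65 and −0.53, and CG1578 and CG11504 were apart at both times. The other 2 probe sets for Ptp4E gave −0.09 and 0, with 1 and 2 arrays of line 58 above the limit. For CG42336, a second probe set above the limit on every array used gave −0.14 (limma, adjusted p = 0.53), and 2 dimmer ones gave −0.05 and 0.10. Over 165 genes with at least 2 measured probe sets, 35 had a brightest probe set that was called; the second had the same sign in 28, was called the same way in 7 and the opposite way in 3.

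Some of these genes also changed with time in the other lines, and others did not. There betaTub60D was higher at 8 h than at 5 h by 0.68 (limma, adjusted p = 0.00065), and Prosalpha6 was lower by −0.80 (adjusted p = 0.0032). CG9184 (0.12, limma, adjusted p = 0.64), ImpL1 (0.01, adjusted p = 0.98) and Drsl5 (0.07, adjusted p = 0.6) were not called for time. A developmental score was therefore set beside the differences: from the average level of the 200 strongest risers between 5 h and 8 h, that of the 200 strongest fallers was subtracted, with both sets chosen for each line in the 8 lines other than itself. At 5 h line 58 scored −0.301, against −1.09 ± 0.171 (SD, n = 8 lines) and a range of −1.43 to −0.895 in the other lines, so that it was the highest of 9. At 8 h it scored 0.873, against 0.117 ± 0.587 (SD, n = 8 lines), and line Drosophila_134, at 1.12, was higher. Array brightness in line 58 was also above the median of the other lines, but within their range, as given above. The part of either in the differences was not tested, except that with brightness as a covariate 962 probe sets were called, 640 higher and 322 lower.

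**Figure D5:**
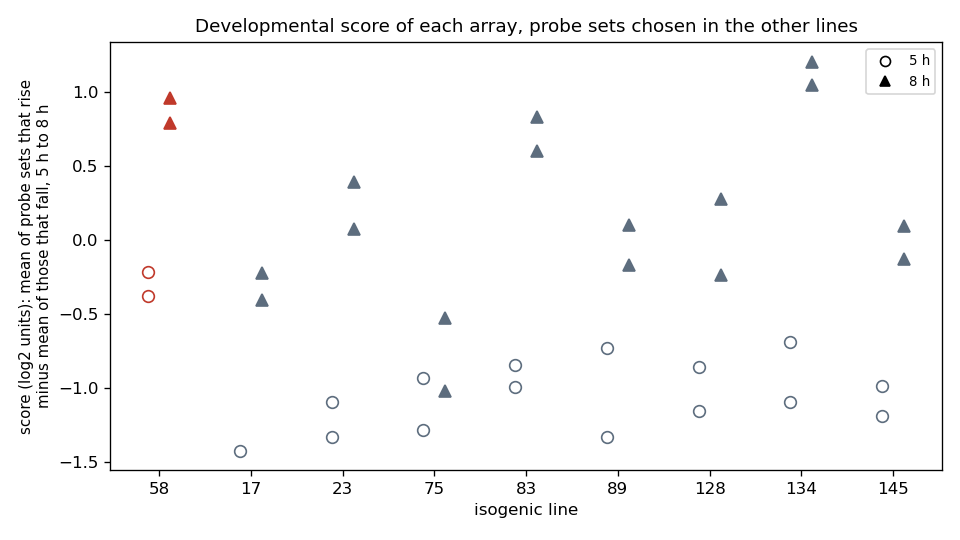
Developmental score (y axis, log2 units) of each array by isogenic line (x axis, line 58 first, in red), with open circles for 5 h and filled triangles for 8 h. Both 5 h arrays of line 58 lie above all other 5 h arrays, and at 8 h both arrays of line Drosophila_134 lie above those of line 58.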

How the data were processed

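The authors deposited 1 intensity per probe set and array on a linear scale; per the labels' protocols, RNA was extracted with TRIzol and labelled by the one-cycle method. What software and scaling made the deposited intensities is not given in the sources used here. Medians of log2 intensity spanned 0.892 between arrays, so quantile normalisation was applied to the 18769 probe sets that are not controls, followed by log2(intensity + 16). A mean per line and time was fitted to 35 arrays in limma 3.58.1 (R 4.3.3, trended variance, 17 residual degrees of freedom). A second fit took the 9 line means as replicates (7 residual degrees of freedom). Adjustment was by Benjamini-Hochberg at 0.05. The scripts were tested on simulated data.

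A probe set was measured if above the 99th percentile of 50 control probe sets, taken by name as negative controls, on at least 18 of the 36 arrays. The number of arrays limits the precision. Names came from the platform annotation, updated through RefSeq: 13647 probe sets had 1 symbol, 402 several and 4720 none here. A gene was its probe set of highest mean (11982 genes).

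Named genes were called over both times, with line 58 the highest or lowest of 9 lines at both times and above the limit on its 4 arrays (higher) or on at least 50% of the other arrays (lower). The 14 largest differences each way were taken, plus the 5 largest among CG numbers, and up to 4 genes of lowest p per list; 1 of them is not reported here by name. Further members were named after their values were seen. The line, the 44 gene lists and the tests were chosen with earlier results of these data known. Alternatives were other scalings, pseudocounts of 4 and 64, measured probe sets only, a replicate block, brightness as a covariate and leaving out arrays or lines.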

Additional observations from a re-analysis of the deposited data

Results flagged for a closer look

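For 14 named genes line 58 stood far from the other 8 line means, with a gap to the next line, as a share of the whole range, above Dixon's critical value for 9 values. Line 58 was the highest for CG9184 (0.688), ImpL1 (0.674), CG10591 (0.657), Drsl5 (0.656), CG14110 (0.655), Spn43Aa (0.648), Osi15 (0.577), CG5885 (0.537), tyn (0.512) and LanA (0.504). It was the lowest for CG11504 (0.613), ND-39 (0.607), nxf2 (0.535) and CG1943 (0.494). Chance alone passes this value in about 1 of 20 groups, and these genes were chosen because line 58 was the highest or lowest, so the number of them is not evidence.

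For 8 genes the difference between line 58 and the other lines was not the same at both times, by the limma test of the change (8 h minus 5 h). The change was 1.72 for CG10591, which had 14.6 and 36.9 at 5 h and 117 and 141 at 8 h in line 58, against medians of 2.32 and 3.27 in the other lines. It was 1.30 for CG14110, 1.14 for ImpE2, 1.06 for tyn, 0.71 for Spn100A, 0.71 for Cyp301a1 and 0.59 for GATAe, each larger at 8 h. For Bro, a cofactor of Runt-type factors active in the early embryo, the change was 0.73: its difference was −0.74 at 5 h and −0.01 at 8 h.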

How the results depend on the processing

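The 38 named genes kept their direction and call under pseudocounts of 4 and 64, a common 90th percentile, the replicate block, and when any array of line 58 or any other line was left out (36 of them could be tested among measured probe sets only). On the deposited scale 10 lost the call (among them retn, wisp, Prosalpha6, Prosbeta7, Ndf, Incenp, bora, CG13551 and CG42336), with a common median 3 (Prosbeta7, Ndf and Incenp) and with brightness as a covariate 2 (Osi6 and Ndf). Signs turned for betaTub56D (0.38 on the deposited scale, 0.12 with a common median), Hsc70-4 (0.34 and 0.07), Dcp-1 (0.09 on the deposited scale) and alphaTub84D (0.02 with brightness as a covariate). The cause was not tested.

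Calls over both times were 962 with brightness as a covariate, and 717 at 8 h. At 5 h they were 729 on the deposited scale and 531 among measured probe sets. Against the spread among lines they were 417 on the deposited scale, 266 with a common median, 91 with a pseudocount of 4 and 48 among measured probe sets. Calls for the change were 1 and 73 with pseudocounts of 4 and 64 and 18 among measured probe sets. The score difference at 5 h of 0.788 was 1.04 with 100 and 0.579 with 400 probe sets each way.

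Without 1 array of line 58, calls ranged from 849 to 1027 over both times, 50 to 321 at 5 h, 278 to 1033 at 8 h, 1 to 39 for the change and 125 to 219 against the spread among lines; fewer arrays of line 58 are then tested, and a lone array was assumed to vary like the others. Without 1 other line they ranged from 1370 to 1630, 269 to 440, 908 to 1265, 28 to 49 and 118 to 241. Chosen after seeing the data, leaving out lines 75 and 89 gave 1526 calls over both times and 212 against the spread among lines, and leaving out lines 83 and Drosophila_134 gave 1723 and 279.

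Replicate numbers did not pair the samples: deviations of same-numbered arrays correlated at −0.431 to 0.377 over 136 pairs of groups (median 0.0309; 32 over 0.1). With the replicate block there were 1537 calls over both times, 349 at 5 h, 1110 at 8 h and 37 for the change. The fit to line means holds 1 value per line, so no block could be added to it.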

Other observations

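Further gene families were chosen after their values were seen and are given as values with no test. Beside Sec61alpha and Sec61gamma, other genes of the entry route into the endoplasmic reticulum were higher in value. The remaining channel subunit Sec61beta differed by 0.74, TRAM, a channel partner, by 0.89, and SrpRalpha, of the receptor for the signal recognition particle, by 0.62. Of 16 genes of this machinery, 14 were above 0, against 40.49% of all genes, with a median of 0.26. Some of the 14 were close to 0, such as Spase22-23 (0.01) and Spase25 (0.03). Both subunits of secreted ferritin, which stores iron, stood alike. Fer1HCH had 165, 183, 221 and 229 in line 58, against 43.8 to 132 at 5 h and 57.4 to 160 at 8 h in the other lines, and Fer2LCH had 162, 151, 200 and 194, against 27.5 to 105 and 71.4 to 137. All 4 arrays of line 58 were above every other array of their time for both genes. Of 24 Osiris genes, of which 2 were measured, 16 were above 0, against 40.49% of all genes, but their median was only 0.01; Osi14 was at 0.93 and Osi20 at 0.74. Among basement membrane genes, Ndg (nidogen) differed by 0.66 and wb, a second laminin alpha chain, by 0.41, while trol (perlecan) was at −0.01 and vkg, the other collagen IV chain, at −0.04. Of 33 genes of the chromosomal passenger complex, spindle and chromatin assembly, 7 were above 0, against 40.49% of all genes, with a median of −0.15. The histone chaperones Nasp and Caf1-180 were at −0.57 and −0.49.

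Some called genes were neighbours in the RefSeq order; runs of higher genes included Osi18, Osi19 and Osi20 on 3R, and CG11076, ATPsynbeta, Zyx and apolpp on chromosome 4. On chromosome 4, 9 of 65 genes were called higher (13.8%), against 6.54% of 11888 genes on all arms. On the X, 95 of 1873 were higher (5.07%) and 100 lower (5.34%), against 4.27% lower on all arms.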
